A study of Rattus norvegicus with 5 samples.

Results

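The nuclear-encoded genes of oxidative phosphorylation were compared in rat liver between a congenic strain, PD.SHR4, and its progenitor strain, PD. The set was defined by gene symbol, with earlier results of these data known. It holds every probe set with a single symbol in the platform annotation where that symbol begins with a listed prefix. The prefixes were Nduf, Sdha to Sdhd, Uqcr, Cox4, Cox5, Cox6, Cox7, Cox8 and Atp5. This gave 44 of 8797 probe sets, 1 for each gene. Complex I had 12 members, complex II 4, complex III 5, complex IV 10 and complex V 13. Of the 44, 39 were counted as subunits, among them the transcribed pseudogene Cox6c-ps1, and 5 were assembly factors or an inhibitor protein. A further 2 probe sets with these prefixes carried several symbols and were left out. The symbols do not take in cytochrome c, cytochrome c1 or the subunits encoded in mitochondrial DNA. The members cover only part of each complex: Sdhb, Uqcrb and Cox5a, for example, had no probe set with a single symbol.

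PD.SHR4 rats carry a chromosome 4 segment of the spontaneously hypertensive rat (SHR), with the deficient Cd36 gene of that strain, on the PD background. The series text writes the strain name as PD.SHR4a. All animals were 4-month-old males fed standard chow, and labelled cDNA from 8 rats per strain was pooled before hybridisation to Affymetrix rat exon arrays, with 2 arrays for PD.SHR4 and 3 for PD. Since no label ties different arrays to different rats, the spread between arrays may be technical, and p-values measure only that spread.

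The respiratory chain lies in the inner mitochondrial membrane. Complex I (NADH dehydrogenase) and complex II (succinate dehydrogenase) pass electrons to ubiquinone, complex III (the cytochrome bc1 complex) passes them to cytochrome c, and complex IV (cytochrome c oxidase) passes them to oxygen. Complex V (ATP synthase) uses the proton gradient built by complexes I, III and IV to make ATP. In hepatocytes this ATP pays for gluconeogenesis, urea synthesis and lipid export, and fatty acid oxidation is a main source of the electrons.

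None of the 44 genes passed the test between the strains (limma, adjusted p from 0.265 to 0.998), where 0.932% of all probe sets passed the threshold of 0.05. At that share a count of 0 in 44 does not stand out, and a gene that missed the threshold is not shown to be equal in the strains. The differences were mostly small: 34 of the 44 (77.3%) had a log2 difference of less than 0.25 in either direction, against 67.9% of all probe sets. The median absolute log2 difference was 0.092 for the 44 genes and 0.16 for all probe sets. Values are RMA log2 levels, and a difference is PD.SHR4 minus PD, so that 1 unit is 2-fold and a positive value is higher in the congenic strain. In liver tissue, fewer cells of a type and less RNA per cell cannot be told apart.

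**Figure D1:**
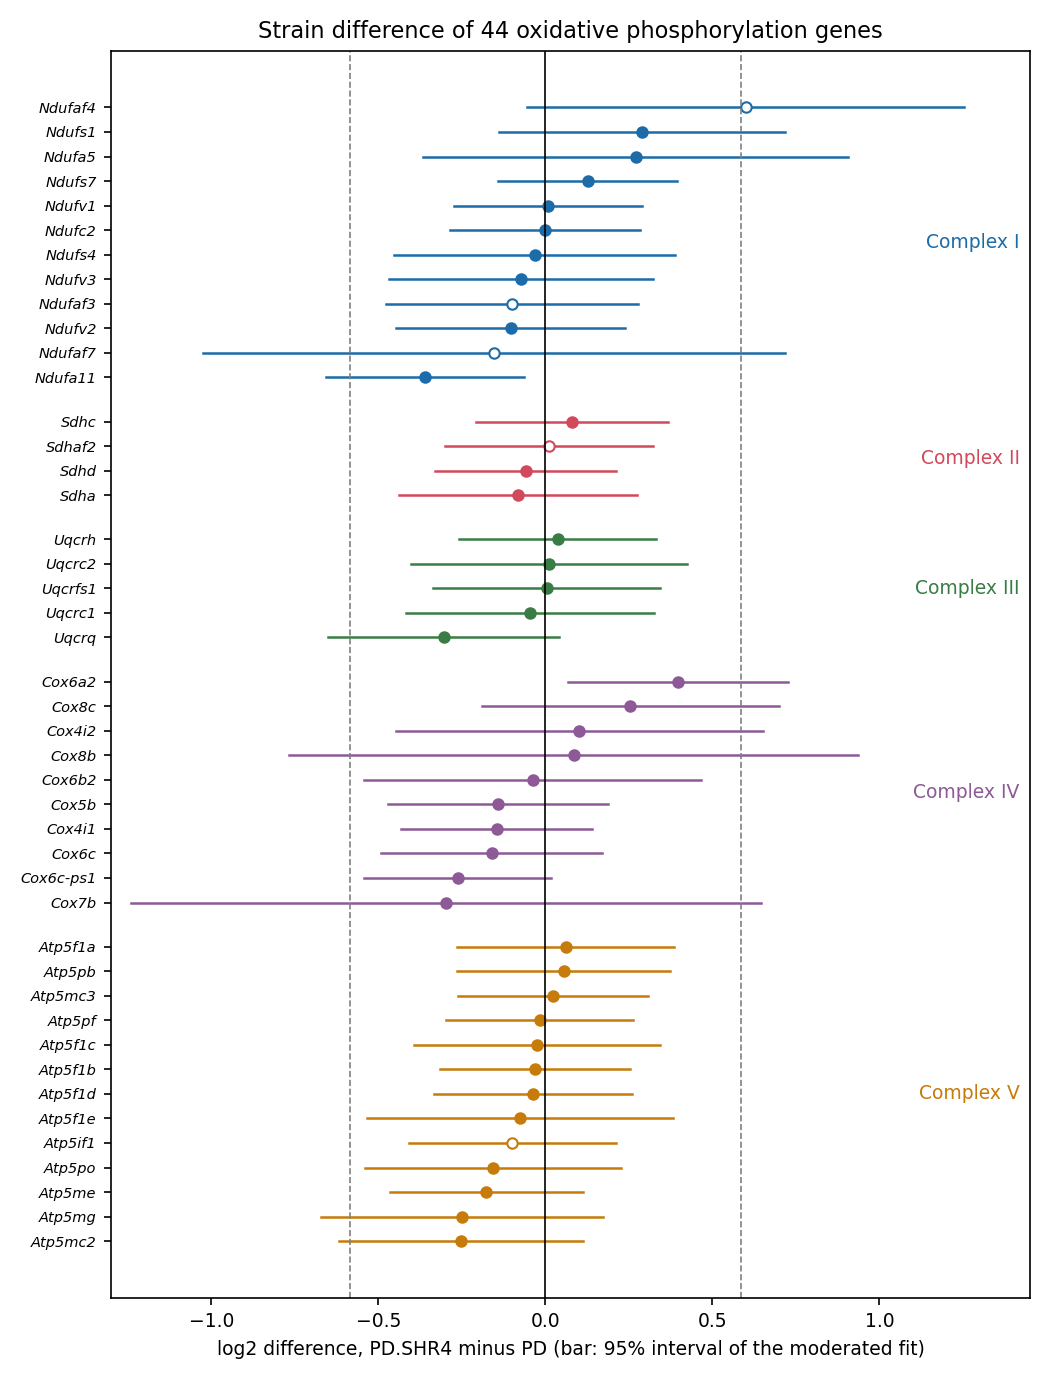
Log2 difference, PD.SHR4 minus PD, of each of the 44 genes (points) with its 95% interval from the moderated limma fit (bars), grouped by complex and ordered by value; filled points are subunits, open points assembly factors or the inhibitor protein, and the dashed lines mark a 1.5-fold difference. All points but the one for Ndufaf4 lie between the dashed lines, and 31 of the 44 intervals do so as well.

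The array limits what can be said of a small difference, so the interval of each difference was also computed. The 95% interval, which is not adjusted for the number of genes, lay inside 1.5-fold in both directions (a log2 difference of 0.585) for 31 of the 44 genes (70.5%), compared with 51.7% of all probe sets. It lay inside 2-fold for 41 of the 44 (93.2%), compared with 85.8% of all probe sets. The 3 genes with wider intervals were Ndufaf4, Ndufaf7 and Cox7b. Most members gave bright signals: 35 of the 44 were among the brightest 25% of the table. Within that 25% the median absolute log2 difference was 0.075 for the 35 members and 0.18 for all 2200 probe sets. This split by brightness was made after the values were seen.

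**Figure D2:**
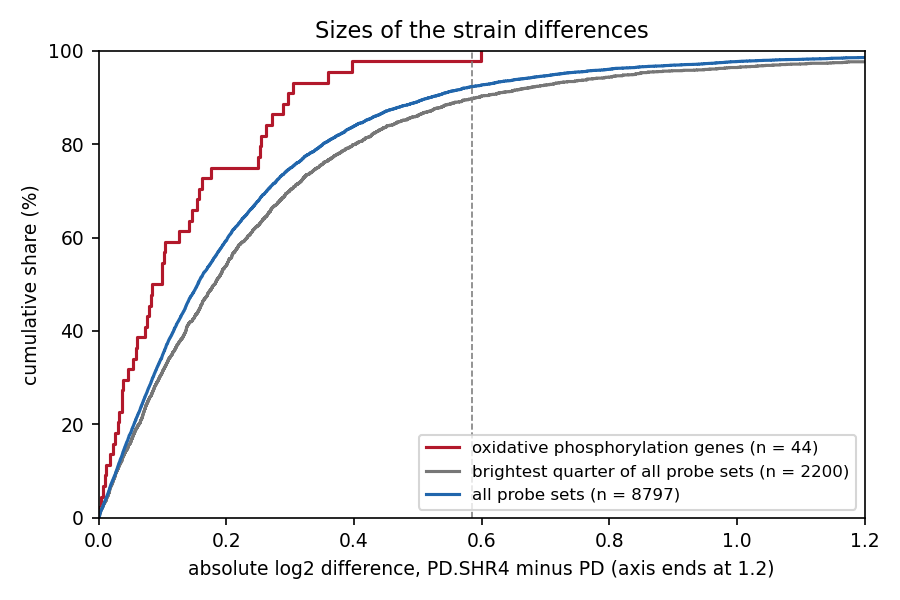
Cumulative share (%) of genes against the absolute log2 difference between PD.SHR4 and PD, for the 44 oxidative phosphorylation genes, for the brightest 25% of all probe sets (n = 2200) and for all 8797 probe sets; the dashed line marks 1.5-fold. The curve of the oxidative phosphorylation genes reaches 77.3% by a difference of 0.25, where all probe sets reach 67.9%.

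At an unadjusted p under 0.05, 1 member was higher and 1 lower in PD.SHR4, where 5.84% of all probe sets were higher and 7.92% lower at that level. Arrays of the strains did not overlap in 11 members. Of these, 4 were higher (Ndufaf4, Cox6a2, Ndufs1 and Ndufs7), where 14.8% of all probe sets were, and 7 were lower (Ndufa11, Uqcrq, Cox6c-ps1, Atp5mc2, Atp5me, Cox4i1 and Sdhd), where 17.1% of all probe sets were. These counts were no larger than the share of the whole table would give. They leave out the 2 probe sets with several symbols. That of Ndufa10 and Ndufa10l1 was at a log2 difference of -0.32 without overlap (unadjusted p = 0.0353, adjusted p = 0.31, limma). That of Atp5pd and Atp5hl1 was at 0.12 with overlapping arrays (adjusted p = 0.86, limma). In 38 of the 44 members (86.4%) the strain difference was smaller than the range of the 3 PD arrays, against 76.0% of all probe sets.

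Promoter sequence is shown here for members that hold a known motif of respiratory chain genes. Nuclear respiratory factor 1 (NRF1) is a transcription factor known to bind many genes of the respiratory chain, through a GC-rich palindrome. The letters GCGCATGC were searched on both strands in the 300 bases from 250 before to 50 after each gene's start (RefSeq, GRCr8), which were at hand for 41 of the 44 genes and are not printed for Cox4i2, Cox6c and Cox6c-ps1. They occurred in 8 of the 41 promoters (19.5%) and in 2.47% of all 33469 promoters of the table. The 8 genes stood at both ends and in the middle of the range. Their log2 differences were -0.36 for Ndufa11, -0.25 for Atp5mc2, -0.25 for Atp5mg, -0.18 for Atp5me, -0.16 for Atp5po, -0.046 for Uqcrc1, 0.25 for Cox8c and 0.60 for Ndufaf4. Ndufa11 had the lowest value of all 44 and Ndufaf4 the highest, and the 4 complex V genes with the letters were those with the lowest values of their complex. This order was picked out after the values were seen. A relation between the letters and the strain difference was not tested. A match is no more than these letters, and NRF1 binding was not measured. The windows of the 5 genes with more than 1 match are printed. Each holds the matches, in capitals, with 20 bases on each side, read 5′ to 3′ on the strand of the gene. Matches on opposite strands overlap within the palindrome, and Ndufa11 has 4 overlapping matches where Ndufaf4, Atp5mc2, Atp5me and Atp5po have 2 each.
Ndufa11, chr9:1637497-1637552, plus strand: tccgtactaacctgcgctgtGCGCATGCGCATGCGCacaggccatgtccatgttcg
Ndufaf4, chr5:43401617-43401666, plus strand: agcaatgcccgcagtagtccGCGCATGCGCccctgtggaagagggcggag
Atp5mc2, chr7:135678245-135678294, minus strand: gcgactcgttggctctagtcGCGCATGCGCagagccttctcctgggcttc
Atp5me, chr14:1464764-1464813, plus strand: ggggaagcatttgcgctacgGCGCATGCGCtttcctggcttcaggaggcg
Atp5po, chr11:44657513-44657562, minus strand: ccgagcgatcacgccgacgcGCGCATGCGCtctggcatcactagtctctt

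The same promoters were searched for the sites of 2 other factors that act on respiratory chain genes. The letters CCGGAAG, the core bound by ETS factors such as GA-binding protein, occurred in 12 of the 41 promoters (29.3%) and in 8.75% of all promoters. The 12 included Ndufs1 (log2 difference 0.29), Cox4i1 (-0.15) and Uqcrq (-0.30). The letters TCAAGGTCA, bound by oestrogen-related receptors, occurred in the promoters of Sdhd and Atp5mc3, 2 of the 41 (4.88%), and in 0.433% of all. In all, 19 members held at least 1 of the 3 motifs.

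In complex I, subunit values lay on both sides of 0, with 4 of 9 above it and a median log2 difference of -0.0018. Ndufa11, an accessory subunit of the membrane arm, had the smallest p of the 44 genes. It measured 10.72 and 10.52 on the PD.SHR4 arrays, against 10.997, 10.97 and 10.97 on the PD arrays. Both congenic arrays were below all PD arrays, which lay close together. The log2 difference was -0.36 ± 0.12 (SE), or 1.28-fold lower in PD.SHR4, with a 95% interval of -0.66 to -0.063 (unadjusted p = 0.0252, adjusted p = 0.265, limma).

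The catalytic core of complex I binds NADH and carries the electrons through a chain of iron-sulphur clusters. Of its 7 nuclear-encoded subunits, 4 were measured. Ndufs1, the iron-sulphur subunit that carries several of the clusters, was at 9.74 and 9.78 in PD.SHR4, against 9.21, 9.72 and 9.49 in PD. The congenic arrays were above every PD array, but PD array 2 came within 0.1 of them, and the log2 difference of 0.29 ± 0.17 (SE) had an adjusted p of 0.562 (limma). Without PD array 1 it was 0.16. Ndufs7, next to the ubiquinone site, measured 9.17 and 9.12 in PD.SHR4, against 9.02, 9.04 and 9.0 in PD. Again the arrays did not overlap, and PD.SHR4 exceeded PD by 0.13 ± 0.11 on the log2 scale (SE; adjusted p = 0.704 by limma). The NADH-binding subunit Ndufv1 had a difference of 0.0072 and its partner Ndufv2 of -0.10, and their arrays overlapped.

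Among the accessory subunits, Ndufa5 had the widest PD range of the complex I subunits, with 3.89 and 4.22 in PD.SHR4, against 3.68, 4.23 and 3.44 in PD. PD array 2 was above both congenic arrays, and the log2 difference was 0.27 ± 0.26 (SE; adjusted p = 0.737, limma), or 0.098 without PD array 3. Ndufa5 was the only member on the chromosome of Cd36, where it was the 81st of 479 measured genes by distance from Cd36. None of the 44 was among the 50 measured genes nearest to Cd36. The other accessory subunits Ndufc2, Ndufs4 and Ndufv3 had values between -0.072 and -0.0018.

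Assembly factors of complex I help to build the enzyme and are not part of it. Ndufaf4 had the largest difference of the 44 genes. It measured 8.53 and 8.35 in PD.SHR4, against 7.33, 8.04 and 8.16 in PD. PD array 1 stood well below the other arrays, and the remaining PD arrays were within 0.5 of the congenic ones. The log2 difference was 0.60 ± 0.27 (SE), or 1.51-fold higher in PD.SHR4, with a 95% interval of -0.055 to 1.25 (adjusted p = 0.410, limma). Without PD array 1 it was 0.34. Ndufaf3, which acts together with Ndufaf4 in assembly, had a difference of -0.099, and Ndufaf7, a methyltransferase that modifies a core subunit, one of -0.15. The arrays of both overlapped.

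**Figure D3:**
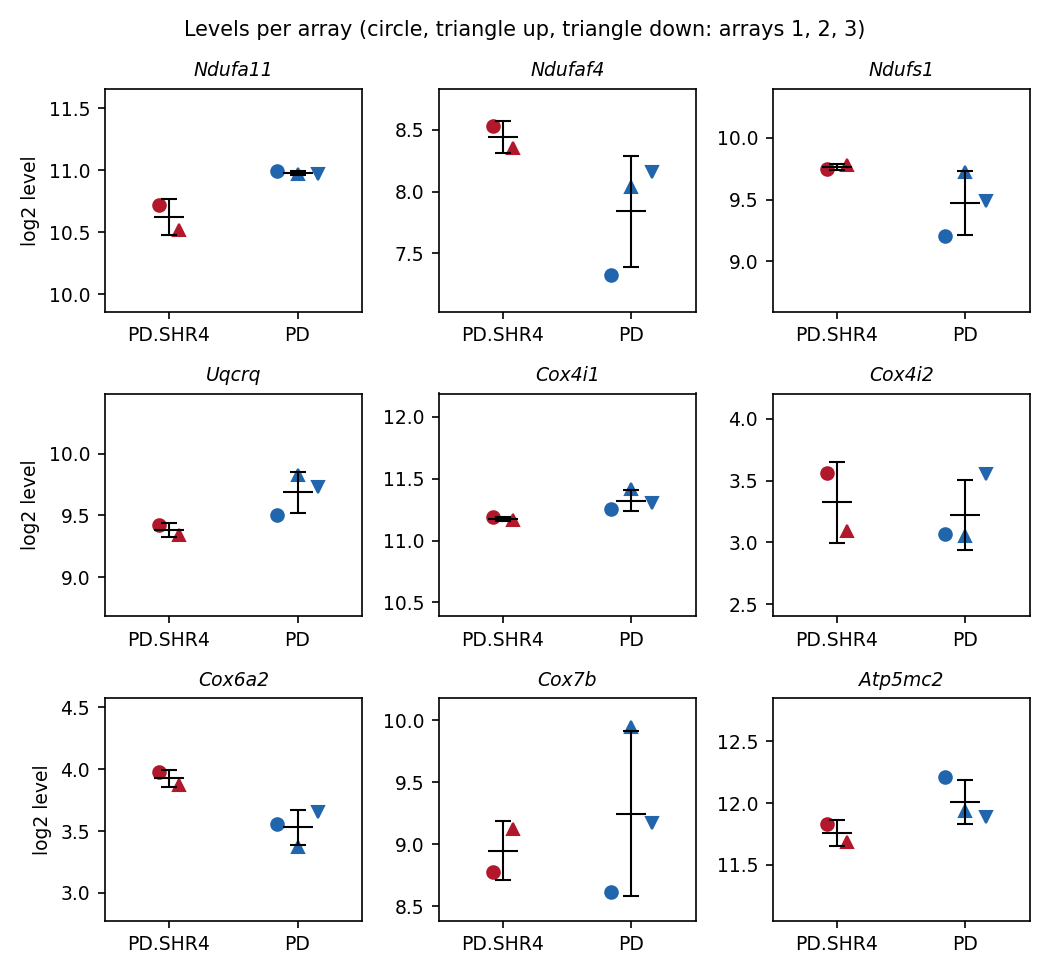
Log2 level on each array for 9 of the genes described, PD.SHR4 on the left and PD on the right of each panel; symbols mark arrays 1, 2 and 3, black lines the mean and SD (n = 2 and n = 3), and every panel spans the same number of log2 units. Both Ndufa11 arrays of PD.SHR4 (10.72 and 10.52) lie below the PD arrays, while the PD arrays of Cox7b are spread over 1.33 units.

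Complex II links the tricarboxylic acid cycle to the respiratory chain, and its 4 members had differences from -0.082 to 0.079. The flavoprotein Sdha, which oxidises succinate, measured 10.24 and 10.17 in PD.SHR4, against 10.09, 10.45 and 10.31 in PD. The PD arrays enclosed both congenic values, and the log2 difference was -0.082 ± 0.14 (SE; adjusted p = 0.884, limma). The membrane anchors that hold the enzyme at the ubiquinone pool went to either side, Sdhc at 0.079 and Sdhd at -0.059. Sdhd had 10.22 and 10.21 in PD.SHR4, against 10.22, 10.31 and 10.29 in PD, so that its arrays did not overlap although the nearest were nearly equal. Sdhaf2, which attaches the flavin to Sdha, had a difference of 0.0100. All 4 intervals lay inside 1.5-fold.

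In complex III, 4 of the 5 subunits had differences between -0.046 and 0.037. These were the core proteins Uqcrc1 (-0.046) and Uqcrc2 (0.011), the Rieske iron-sulphur protein Uqcrfs1 (0.0041), which hands electrons to cytochrome c1, and the hinge protein Uqcrh (0.037). Uqcrc2 shows the spread behind these values, with 10.36 and 10.42 in PD.SHR4, against 10.15, 10.63 and 10.36 in PD. The fifth, the small subunit Uqcrq, stood apart at 9.42 and 9.34 in PD.SHR4, against 9.50, 9.83 and 9.73 in PD. Both congenic arrays were below all PD arrays. Its log2 difference was -0.30 ± 0.14 (SE), or 1.24-fold lower, with a 95% interval of -0.65 to 0.042 (adjusted p = 0.433, limma).

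Complex IV exists in tissue-specific forms, since several of its subunits have separate genes for liver and most other tissues, for heart and skeletal muscle, for lung and for testis. All 4 measured subunits of the ubiquitous form lay below 0 (median -0.15 on the log2 scale), while 4 of the 5 isoforms of other tissues lay above 0 (median 0.10). Of all probe sets, 50% lay above 0. The planned comparison was by isoform pair, and of the complex IV pairs only Cox4i1 and Cox4i2 were both measured. Apart from these the groups hold different subunits. Cox7b, Cox4i2, Cox6b2 and Cox8b changed sign in an alternative, where Cox4i1, Cox6c, Cox6a2 and Cox8c did not. None of these genes passed the test, and the difference between the groups of isoforms was not tested. Cox4i1, the ubiquitous form of the regulatory subunit IV, measured 11.19 and 11.17 in PD.SHR4, against 11.25, 11.41 and 11.30 in PD. Both congenic arrays were below all PD arrays, though close to the lowest of them. The log2 difference was -0.15 ± 0.12 (SE; 95% interval -0.43 to 0.14; adjusted p = 0.676, limma). The zinc-binding subunit Cox5b had a difference of -0.14 and Cox6c of -0.16, with overlapping arrays, and Cox6c was at -0.029 without PD.SHR4 array 2. Cox7b was the least reproducible member: it had 8.78 and 9.12 in PD.SHR4, against 8.62, 9.95 and 9.17 in PD, a range of 1.33 within PD. Its difference of -0.30 ± 0.38 (SE) became 0.054 without PD array 2.

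Of the isoforms of complex IV from other tissues, Cox6b2 had a mean of 5.14 in PD.SHR4 and 5.18 in PD, close to the array medians of 5.21 to 5.38, and the other 4 gave lower signals. Cox6a2, the heart and muscle form of subunit VIa, was at 3.98 and 3.87 in PD.SHR4, against 3.56, 3.38 and 3.65 in PD. Both congenic arrays were above all PD arrays. Its log2 difference was 0.40 ± 0.13 (SE), or 1.32-fold higher, with a 95% interval of 0.067 to 0.73 (unadjusted p = 0.0258, adjusted p = 0.269, limma), and the 1.5-fold bound lay within that interval. Muscle and fat markers, which could mark other tissue in a liver sample, numbered 10, of which 7 had values above 0 with a median of 0.029. Their summed linear signal was 149 to 161 in PD.SHR4, against 139 to 157 in PD. Acta1, the actin of skeletal muscle, had a difference of 0.28 without overlap, and the muscle creatine kinase Ckm one of 0.018; both were named after their values were seen. Their part in the Cox6a2 value was not tested.

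The lung isoform Cox4i2 measured 3.56 and 3.09 in PD.SHR4, against 3.07, 3.05 and 3.55 in PD. Values near 3.5 and near 3.1 occurred in both strains, and the difference of 0.10 ± 0.22 (SE) had an adjusted p of 0.910 (limma). Cox8b, the muscle form of subunit VIII, was below the lower quartile of every array and had a difference of 0.084 ± 0.35 (SE). The testis forms Cox8c and Cox6b2 had differences of 0.25 and -0.039 with overlapping arrays, and Cox8c was at 0.045 without PD.SHR4 array 2. Cox6c-ps1, annotated as a transcribed pseudogene of Cox6c, was the second member below the lower quartile of every array. It had 2.01 and 2.01 in PD.SHR4, against 2.19, 2.34 and 2.28 in PD, a difference of -0.26 ± 0.11 (SE; adjusted p = 0.398, limma). The platform annotation pairs the probes of Cox6c and Cox6c-ps1 with separate genes, and cross-hybridisation between such near copies was not tested.

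Complex V had the largest number of genes measured here, and 9 of its 12 measured subunits were below 0 (median -0.034). In the catalytic head, the 5 subunits lay between -0.075 and 0.061, and all 5 intervals were inside 1.5-fold. Atp5f1b, the beta subunit that holds the catalytic sites, measured 11.57 and 11.61 in PD.SHR4, against 11.54, 11.69 and 11.64 in PD, a log2 difference of -0.031 ± 0.12 (SE; 95% interval -0.31 to 0.25). The congenic values lay among the PD values. Atp5f1a, the alpha subunit, had a difference of 0.061 ± 0.13 (SE), and the gamma subunit Atp5f1c, the shaft that turns inside the head, of -0.026.

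The ring of c subunits, which turns as protons pass, has several genes that encode the same mature protein, and 2 of them were measured. Atp5mc2 had 11.83 and 11.68 in PD.SHR4, against 12.21, 11.93 and 11.88 in PD. Both congenic arrays were below all PD arrays, 1 of them only just, and the log2 difference was -0.25 ± 0.15 (SE; 95% interval -0.62 to 0.11; adjusted p = 0.550, limma). Atp5mc3 measured 11.88 and 11.88 in PD.SHR4, against 11.79, 11.84 and 11.95 in PD, a difference of 0.022 ± 0.12 (SE; adjusted p = 0.964, limma). The difference between the 2 genes was not tested.

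In the peripheral stalk and membrane part of ATP synthase, values ran from -0.25 to 0.055 over 5 genes. The stalk subunits Atp5pb and Atp5pf had differences of 0.055 and -0.017, and Atp5po, the oligomycin sensitivity protein that ties the stalk to the head, had one of -0.16. The subunits e and g, which help ATP synthase to form dimers, were lower in value. Atp5me, subunit e, measured 11.24 and 11.08 in PD.SHR4, against 11.34, 11.39 and 11.29 in PD. Its arrays did not overlap, and the difference was -0.18 ± 0.12 (SE; adjusted p = 0.614 by limma). Atp5mg, subunit g, had a difference of -0.25 ± 0.17 (SE; adjusted p = 0.624, limma) with overlapping arrays, and of -0.12 without PD array 2. Atp5if1, which blocks the enzyme from running backwards, had a difference of -0.100.

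The complexes were then set side by side by their measured subunits, which are only part of each complex. The median log2 difference of the subunits was -0.0018 in complex I (9 genes), -0.059 in complex II (3 genes), 0.0041 in complex III (5 genes), -0.090 in complex IV (10 genes) and -0.034 in complex V (12 genes), where the median of all probe sets was 0.00020. These medians spanned less than 0.1, and the differences between them were not tested. The interval was inside 1.5-fold for 6 of 9 subunits in complex I, 3 of 3 in complex II, 4 of 5 in complex III, 5 of 10 in complex IV and 10 of 12 in complex V. The complex IV count includes the 5 isoforms of other tissues, of which Cox6b2 alone had such an interval. When each array was centred on its own median, the medians became 0.052, -0.0055, 0.058, -0.037 and 0.020 for complexes I to V. The median of all probe sets then became 0.054. The sign of the medians of complexes I and V thus depends on a scaling that shifts the whole table. On both scales only the median of complex III lay above that of all probe sets.

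In each complex, as over all probe sets, the PD arrays differed among themselves by more than the strains differed. Single arrays are set here against means of arrays, so the wider range is not particular to the complexes. For each array, the deviation of every subunit from its PD mean was taken, and the median over the subunits of a complex was formed. Over all probe sets this median was 0.0034 and -0.010 on the PD.SHR4 arrays, against -0.051, 0.048 and -0.0038 on PD arrays 1, 2 and 3. In complex I it was 0.021 and -0.0070 on the PD.SHR4 arrays, against -0.11, 0.18 and -0.015 on PD arrays 1, 2 and 3. In complex III it was 0.0065 and -0.015 on the PD.SHR4 arrays, against -0.19, 0.14 and 0.044 on the PD arrays. The congenic arrays thus lay inside the range of the PD arrays, and this was so in complexes II and V as well. In complex IV, PD.SHR4 array 1 was inside the range and array 2, at -0.13, lay just below PD array 1, at -0.11.

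**Figure D4:**
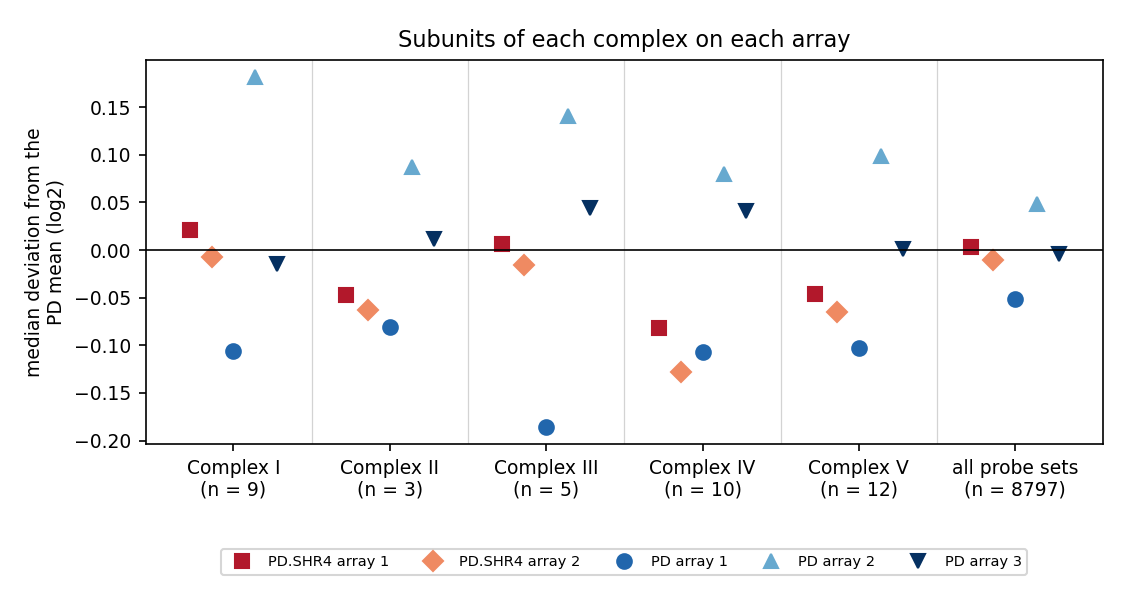
Median deviation of the subunits of each complex, and of all probe sets, from the PD mean (log2) on each array; red and orange symbols are the 2 PD.SHR4 arrays and blue symbols the 3 PD arrays. PD array 2 is the highest in every group of genes and, except in complex IV, PD array 1 the lowest, with the PD.SHR4 arrays between them; in complex IV, PD.SHR4 array 2 is the lowest.

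The highest and lowest array of each member were then counted. Of the 5 arrays, PD array 2 was the highest for 28 of the 44 genes (63.6%), compared with 34.4% of all probe sets, and PD array 1 was the lowest for 26 of the 44 (59.1%), compared with 28.8% of all probe sets. The array medians over all probe sets had the same extremes, 5.38 on PD array 2 and 5.21 on PD array 1. So had the upper quartiles, 7.65 on PD array 2 and 7.38 on PD array 1, and most members gave bright signals. These counts were not made for the bright probe sets alone. After centring each array on its median, PD array 2 was the highest for 13 members (29.5%) and PD array 1 the lowest for 16 (36.4%), compared with 18.8% and 19.3% of all probe sets. On that scale PD array 2 was also the lowest for 12 members (27.3%), compared with 35.5% of all probe sets. Per the labels the arrays of a strain hold pooled cDNA, and the source of the spread between them was not tested.

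Other genes of mitochondrial energy metabolism were read from lists chosen with earlier results of these data known. None of the genes on these lists passed the test over all probe sets, so each list is given by its counts and median. With array weights, 819 of the 8797 probe sets passed, where 82 did in the main fit. Among them were Lrpprc, Tomm70 and Slc25a1 (adjusted p = 0.0348, 0.0428 and 0.0461, limma). Of each list, only the 2 genes with the smallest p were followed under the alternatives. Regulators of mitochondrial biogenesis had a median log2 difference of 0.22, with 8 of 9 values above 0. Of the 9, 6 were higher in PD.SHR4 without overlap between the strains, where 14.8% of all probe sets were. None of the 9 had an unadjusted p under 0.05 (limma), where 13.8% of all probe sets did. In 6 of the 9 (66.7%) the difference was smaller than the range of the PD arrays, against 76.0% of all probe sets. Tfb2m, a mitochondrial transcription factor, measured 7.88 and 8.09 in PD.SHR4, against 7.32, 7.88 and 7.43 in PD, with the nearest arrays of the strains almost equal (0.44 ± 0.20 SE, adjusted p = 0.416, limma). Esrra, the oestrogen-related receptor alpha, measured 6.46 and 6.41 in PD.SHR4, against 6.25, 6.16 and 6.18 in PD, a difference of 0.24 ± 0.11 (SE; adjusted p = 0.444, limma). Both congenic arrays of Esrra were above all PD arrays. The coactivator Ppargc1a, named after its value was seen, had a difference of -0.052.

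Assembly factors outside the symbol rule had a median of 0.21 over 7 genes, with 5 above 0 and 3 higher without overlap, and none lower. Of all probe sets, 14.8% were higher without overlap and 17.1% lower. Lrpprc, which stabilises mitochondrial messenger RNA, measured 8.92 and 8.96 in PD.SHR4, against 8.36, 8.69 and 8.49 in PD (0.43 ± 0.14 SE, adjusted p = 0.256, limma). Both congenic arrays were above all PD arrays. Cox14, a complex IV assembly factor, had a difference of 0.20. Outer membrane and import proteins had a median of 0.13 over 14 genes, with 11 above 0 and 5 of 14 higher without overlap, and none lower, where 14.8% of all probe sets were higher and 17.1% lower. Examples are the import receptor Tomm70 (0.35 ± 0.13 SE) and the import pore Tomm40 (0.45 ± 0.18 SE).

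The remaining lists of mitochondrial genes had medians closer to 0. Electron carriers and feeding enzymes had a median of 0.094 over 7 genes, 6 of them above 0. Of the 7, 3 were higher without overlap and none lower, where 14.8% of all probe sets were higher and 17.1% lower. Etfdh, which takes electrons from fatty acid oxidation to ubiquinone, was at 0.25 ± 0.13 (SE) and Etfb, part of its electron donor, at 0.12. The tricarboxylic acid cycle had a median of 0.076 over 12 genes, 7 of them above 0, with 3 higher without overlap and none lower. Its isocitrate dehydrogenase subunit Idh3a was at 0.38 ± 0.15 (SE) and Ogdh at 0.31. Genes of coenzyme Q synthesis had a median of 0.0074 over 5 genes, with 1 higher and 1 lower without overlap. Coq3, a methyltransferase of the pathway, was at 0.34 and Coq10b, a coenzyme Q binding protein, at -0.34. Mitochondrial ribosomal proteins had a median of -0.043 over 13 genes, 6 above 0 and 7 below, with 3 higher and 1 lower without overlap. In both directions together this was 30.8% of the list, against 31.9% of all probe sets. By p, the first were Mrps18b at 0.29 and Mrps10 at 0.23. Inner membrane carriers had a median of -0.068 over 9 genes, 4 above 0 and 5 below, with 3 higher and 3 lower without overlap. Both directions made up 66.7% of the list, against 31.9% of all probe sets. The smallest p were those of the ADP and ATP carrier Slc25a4, the form of heart and muscle, at -0.38 ± 0.12 (SE) and the citrate carrier Slc25a1 at -0.38 ± 0.13 (SE). Adjusted p (limma) of these named genes was 0.253 or more.

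Facts of the whole table set the frame for these values. Cd36, read from a probe set it shares with its paralogue, measured 4.18 and 4.85 in PD.SHR4, against 7.35, 7.83 and 7.93 in PD, so that the strain labels matched the deficiency (log2 difference -3.19, adjusted p = 0.0149, limma). The hepatocyte markers were present, with albumin (Alb) at 13.3 in PD.SHR4 and 13.2 in PD, and 9 of 10 differed by less than 0.25. The exception was Tat (-0.61 ± 0.21 SE, adjusted p = 0.270, limma). Markers of macrophages and lymphocytes were lower in value in PD.SHR4: 6 of 7 and 9 of 10 were below 0, with summed linear signals of 3513 to 3571 in PD.SHR4 and 4000 to 4480 in PD for macrophages, and of 304 to 315 in PD.SHR4 and 432 to 525 in PD for lymphocytes. Tyrobp (-0.80 ± 0.12 SE) and Klrk1 (-1.14 ± 0.21 SE) had the smallest p of these lists. Of 8 stellate cell markers 5 were below 0, with Pdgfrb at -0.48. The 2 cholangiocyte markers were Krt19 at 0.50 and Epcam at -0.23, and the 2 erythroid markers were Hbb-b1 at -0.66 and Slc4a1 at -0.22. Retn, at -0.45, had the smallest p of the muscle and fat markers. None of these markers passed the test over all probe sets as fitted here. Tyrobp passed under 3 alternatives, Klrk1 under 2, and Tat, Pdgfrb, Krt19 and Hbb-b1 with array weights. Those weights gave 819 passing probe sets in the whole table, where the main fit gave 82. The part of such cells in the values of the 44 genes was not tested.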

How the data were processed

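Liver RNA was measured on Affymetrix rat exon arrays. The deposited log2 values are RMA levels from Expression Console, 1 per core-gene probe set and array, per the labels; Partek is a further tool in the submitters' processing notes. The RMA method subtracts background, equalises the distributions of the arrays and summarises probes, so small shared shifts can be removed. Software versions and a build were not given in the sources used here. There are no detection calls, and the 5 arrays limit the precision. Of 8797 probe sets, 7603 had 1 symbol in the platform annotation and 409 several.

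All probe sets were fitted with limma 3.58.1 in R 4.3.3 (lmFit, eBayes, no covariate, two-sided), with Benjamini-Hochberg adjustment over the table and a threshold of 0.05. Intervals are 95% and unadjusted. The code of the fit was also run on simulated data, with independent normal noise drawn from the fit's own variances. Such data cannot show how the fit performs on the noise of these arrays. Linear signals of markers are sums of 2 to the power of the log2 value. Promoters came from RefSeq (GRCr8).

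Members and lists were chosen with earlier results of these data known. Genes were named by a rule: the 3 highest and 3 lowest members of each complex (all where it had 6 or fewer), isoforms, the 2 smallest p of each pathway list and the smallest of each marker list, and Cd36. Other members are given by value or range. No endothelial marker of the list had a probe set with 1 symbol. As alternatives, single arrays were left out, replicate numbers were fitted as a block, and the following were changed: variance priors, array weights, a filter on dim probe sets, scaling, threshold and the grouping of members.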

Additional observations from a re-analysis of the deposited data

How the results depend on the processing

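No member passed the adjusted threshold under any of the 13 alternatives run with limma, where at an unadjusted p under 0.05 the count was 2 as reported. That count was 4 without variance shrinkage, 4 after a further quantile normalisation and 7 with array weights. It was 2 to 4 when single PD arrays were left out. Over all 8797 probe sets the count was 1211 in the main fit and 1102 without shrinkage. It was 1449 after quantile normalisation, 2461 with array weights and 924 to 1534 without single PD arrays. The count of members without overlap was 17 after quantile normalisation and 14 to 25 without single PD arrays, since fewer arrays overlap less often. The share of all probe sets without overlap was computed for the main setting only. The count over all probe sets, 82, was 151 with an intensity trend and robust prior, 2 without shrinkage, 149 without the dimmest 25%, 819 with array weights, 240 at a threshold of 0.1 and 0 to 55 without single arrays (0 without either PD.SHR4 array, with 737 or 710 below 0.05 before adjustment, and a single PD.SHR4 array was taken to vary like PD). The lower calls were 70.7% of the 82, 59.0% after median centring and 58.0% after quantile normalisation. With the replicate block the count was 163 and the members' count 0; arrays of the same number correlated at 0.0498 and 0.0819 in their deviations, and 2 shared numbers do not pair the samples.

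The complex medians moved by less than the spread of the PD arrays, except that of complex IV, which ranged from -0.19 (PD array 1 left out) to 0.034 (PD array 2 left out). The other complexes stayed between -0.10 and 0.058, and the median of every complex changed sign in at least 1 alternative. Complex IV was at -0.16 without tissue isoforms and -0.15 without the pseudogene as well; leaving out the pseudogene was chosen after seeing the data. Updated symbols gave the same members, and the alternative that counts Ndufa4 with complex I was not run because Ndufa4 is not among the members. The pathway medians, tried after seeing the data, moved by less than that spread, except that of inner membrane carriers, which was -0.015 after median centring. Those of coenzyme Q synthesis, the tricarboxylic acid cycle and the ribosome changed sign in at least 1.

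Of 30 named members, 13 changed sign in some alternative, all of them uncalled. With the replicate block Sdhaf2 was -0.0151. After median centring Cox6b2 was 0.0150 and Uqcrc1 0.00706, and after quantile normalisation Cox6b2 was 0.0200. With array weights Cox4i2 was -0.15, Cox8b -0.072, Atp5mc3 -0.047, Ndufaf7 0.0030, Uqcrh -0.040 and Uqcrfs1 -0.042. Without single arrays the ranges were Cox4i2 -0.13 to 0.33, Cox6b2 -0.20 to 0.11, Cox8b -0.24 to 0.40, Ndufaf7 -0.46 to 0.16, Uqcrfs1 -0.089 to 0.063, Uqcrc2 -0.10 to 0.14, Uqcrc1 -0.14 to 0.048, Atp5mc3 -0.013 to 0.068, Sdhaf2 -0.037 to 0.082, Uqcrh -0.012 to 0.088, Atp5pb -0.018 to 0.12, Sdha -0.18 to 0.00045 and Cox7b -0.61 to 0.054. The causes were not tested. Without single arrays, Ndufs1 ranged from 0.16 to 0.41, Ndufa5 from 0.098 to 0.50, Cox8c from 0.045 to 0.46, Cox6c from -0.29 to -0.029, Atp5mc2 from -0.33 to -0.15, Atp5me from -0.26 to -0.097 and Atp5mg from -0.35 to -0.12. Of the 53 named genes other than Cd36, 9 passed in some alternative, none of them a member. With array weights these were Lrpprc, Slc25a1, Tomm70, Tat, Tyrobp, Klrk1, Pdgfrb, Krt19 and Hbb-b1 (adjusted p from 0.0100 to 0.0461, limma). Array weights gave 819 passing probe sets in the whole table, and other genes of the lists were not followed there. Tyrobp also passed with the trend and robust prior (0.0391) and without the dimmest 25% (0.0370), and Klrk1 with the replicate block (0.0365). Ndufa11 kept its sign, at -0.46 to -0.26, with an adjusted p of 0.072 to 0.83, and Cd36 lay between -3.52 and -2.85, with an adjusted p above 0.05 without either PD.SHR4 array, without PD array 3 and without shrinkage, where the value itself was -3.19.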
